A study of Mus musculus with 16 samples.

Results

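In all, 10 immediate early genes were followed across dendritic cells of the mouse spleen: Fos, Fosb, Jun, Junb, Jund, Egr1, Egr2, Ier2, Klf10 and Rhob. They were found by name in the count table, where all 10 members were present among 24116 genes, and all 10 passed the filter on low counts that left 13790 tested genes. Klf10 and Rhob had been selected on their lower counts in CKO than in WT plasmacytoid cells, so every value of that contrast is given below as a description without a test. RNA was sequenced from 16 libraries of sorted spleen cells, 2 for each of 4 subsets in each of 2 genotypes. The CKO cells are described as deficient in Etv6, a repressor of the ETS family, and the WT cells are their wild-type counterparts. Dec205 names the cells sorted as the cross-presenting classical type (cDC1), after a receptor on their surface, pDC is the plasmacytoid dendritic cell, and Esamlo and Esamhi are the classical cells of the cDC2 lineage with low and high levels of the adhesion molecule ESAM. The sources used here do not give the promoter behind the deletion, the strain or age of the mice, or the number of mice in a library. No label ties the replicates to separate mice, so each p-value reflects library-to-library spread, part of which may be technical.

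Immediate early genes are transcribed within minutes of a signal, from factors that already sit in the cell. MAP kinase signalling acts on them through serum response factor and its ETS partners, which bind CArG boxes and neighbouring sites, and through CREB, which binds cAMP response elements. Fos and Jun proteins pair to form AP-1, and Egr proteins are zinc finger factors whose activity is limited by the Nab corepressors. In dendritic cells both groups respond to microbial ligands and growth factors, and they are also known to be induced while tissue is digested and sorted.

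The 250 bases before the annotated start are shown for 4 chosen members, whose windows each hold at least 1 of the motifs marked below. Other members whose levels also differed between subsets are not printed. RefSeq windows on GRCm38.p6 were found for 7 of the 10 members, and the 4 below are Fos (chr12:85473640-85473889, plus strand), Jun (chr4:95052223-95052472, minus strand), Junb (chr8:84978749-84978998, minus strand) and Egr2 (chr10:67537619-67537868, plus strand). Capitals mark matches, on either strand, to the CArG box (CC, a run of A and T, then GG), to TGACG (the core of a cAMP response element), to TGACATCA (an AP-1 type element) and to GGAAGT (an ETS type core). Of the other members, 5 lie at chr7:19302696-19310051 (Fosb), chr8:70698949-70700616 (Jund), chr8:84661331-84662852 (Ier2), chr15:38291463-38300706 (Klf10) and chr12:8497661-8500009 (Rhob), whole genes by GENCODE M21. The canonical AP-1 letters TGACTCA were searched as well.
Fos: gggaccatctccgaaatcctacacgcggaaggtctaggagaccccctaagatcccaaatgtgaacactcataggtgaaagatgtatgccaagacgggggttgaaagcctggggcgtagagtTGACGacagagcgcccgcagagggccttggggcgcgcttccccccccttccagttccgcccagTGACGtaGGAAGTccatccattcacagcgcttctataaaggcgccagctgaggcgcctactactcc
Jun: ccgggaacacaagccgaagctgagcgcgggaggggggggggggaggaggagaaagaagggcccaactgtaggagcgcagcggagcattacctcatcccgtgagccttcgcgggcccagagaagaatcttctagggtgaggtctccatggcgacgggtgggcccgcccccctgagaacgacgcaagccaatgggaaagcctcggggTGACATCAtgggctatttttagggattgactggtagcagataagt
Junb: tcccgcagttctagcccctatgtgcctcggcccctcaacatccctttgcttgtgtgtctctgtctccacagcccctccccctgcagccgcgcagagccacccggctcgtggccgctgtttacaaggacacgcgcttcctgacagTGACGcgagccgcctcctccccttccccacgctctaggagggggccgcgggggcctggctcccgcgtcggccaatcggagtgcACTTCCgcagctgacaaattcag
Egr2: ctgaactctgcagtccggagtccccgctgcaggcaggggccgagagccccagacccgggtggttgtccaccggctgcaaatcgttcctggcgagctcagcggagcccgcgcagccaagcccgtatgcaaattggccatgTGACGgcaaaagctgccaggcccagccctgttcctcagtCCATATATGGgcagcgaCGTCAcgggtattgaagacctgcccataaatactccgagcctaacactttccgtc
The Egr2 window held a CArG box 72 bases before the start, with TGACG on both sides of it, at 111 bases and, on the opposite strand, at 55 bases. Of the 5 Egr2 windows, which overlap in part, 4 held a CArG box. Windows 3, 4 and 5 hold the same box, at 72, 73 and 133 bases before their starts, so it is counted more than once. A CArG box occurred in 1.47% of all 32851 windows. The windows of Fos, Fosb, Jun, Junb, Jund and Rhob held none. Fos held TGACG at 129 and 66 bases before the start, with GGAAGT at 59 bases close behind the nearer copy. Junb held TGACG at 106 bases and, on the opposite strand, GGAAGT at 23 bases, and Jun held TGACATCA at 45 bases. In all windows TGACG occurred in 17.8%, GGAAGT in 19.7%, TGACATCA in 2.93% and TGACTCA in 4.46%, the last in none of the members' windows. Of the windows not printed, Fosb held TGACG at 60 bases, and those of Jund and Rhob held none of the motifs. These matches are a description of letters, not of bound sites.

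The libraries held 14434287 to 20709265 counts. The targeted gene Etv6 was at 205 and 219 CPM (counts scaled to the size of the library) in Dec205 CKO, against 337 and 375 CPM in Dec205 WT (log2 fold change -0.75, SE 0.10, edgeR quasi-likelihood adjusted p = 0.000996). Its log2 fold change was -0.026 in pDC, -0.36 in Esamlo (adjusted p = 0.255) and -0.19 in Esamhi (adjusted p = 0.812), and a count over the whole gene does not show which exons were lost. Xist was at 114 to 355 CPM in the 8 CKO libraries, against 0 to 1.44 CPM in the 8 WT libraries, and the Y-linked Ddx3y was at no more than 1.95 CPM in CKO, against 105 to 222 CPM in WT. The sex-linked genes therefore separated the same libraries as the genotype labels, and sex and genotype cannot be told apart in any CKO result below. Markers of the sorted subsets were checked next. The summed level of 9 pDC markers was 14244 to 16463 CPM in the pDC libraries and 380 to 665 CPM in all others (Klk1 at 0 in Esamlo and in Esamhi WT). The summed level of 9 cDC1 markers was 7339 to 8401 CPM in Dec205 and 264 to 628 CPM in the Esam subsets, but also 6838 to 7176 CPM in pDC. Most of the sum in pDC was Irf8 (6515 to 6810 CPM), with Cd8a at 152 to 193 CPM and Clec9a at 104 to 127 CPM. Xcr1 was at no more than 2.08 CPM in pDC and Tlr3 at no more than 0.75 CPM. Esam itself was at 131 to 151 CPM in Esamhi, 7.99 to 13.7 CPM in Esamlo, 7.39 to 33.2 CPM in Dec205 and 0 in pDC. The 8 cDC2 markers summed to 2227 to 2772 CPM in the Esam subsets, 61.1 to 130 CPM in Dec205 and 1339 to 1550 CPM in pDC. Among them Clec10a was higher in pDC (195 to 245 CPM) than in Esamlo (18.1 to 49.8 CPM) and Esamhi (0.746 to 1.58 CPM), and Mgl2 was likewise higher in pDC (36 to 44.4 CPM) than in Esamlo (6.6 to 28.1 CPM) and Esamhi (0.394 to 1.36 CPM).

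The WT subsets differed in the level of most of these genes. Among the 8 members that could be tested with pDC WT in the comparison, all 8 differed over the 4 WT subsets, where 61.7% of all tested genes did. Egr1 was 9.52-fold to 17.5-fold and Egr2 64.6-fold to 178-fold lower in pDC WT than in the classical subsets. Fos, Junb and Ier2 were lower in pDC WT by 1.31-fold to 2.52-fold, and Jund had its highest mean there. In bulk libraries fewer expressing cells and less RNA per cell cannot be told apart. Per kilobase of exon, Fos had the highest level of the members in the classical subsets (1486 to 1848 CPM per kb), followed by Junb (1146 to 1559 CPM per kb). In pDC, Jund was at 852 CPM per kb in CKO and 931 in WT, and Fos at 859 CPM per kb in CKO and 794 in WT. Klf10, at 4.86 to 19 CPM per kb, and Rhob, at 8.39 to 39 CPM per kb, were the weakest members in the classical subsets. Together the 10 members took 0.651% to 0.674% of the counts of a pDC library and 0.923% to 1.55% of those of the other libraries.

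**Figure D1:**
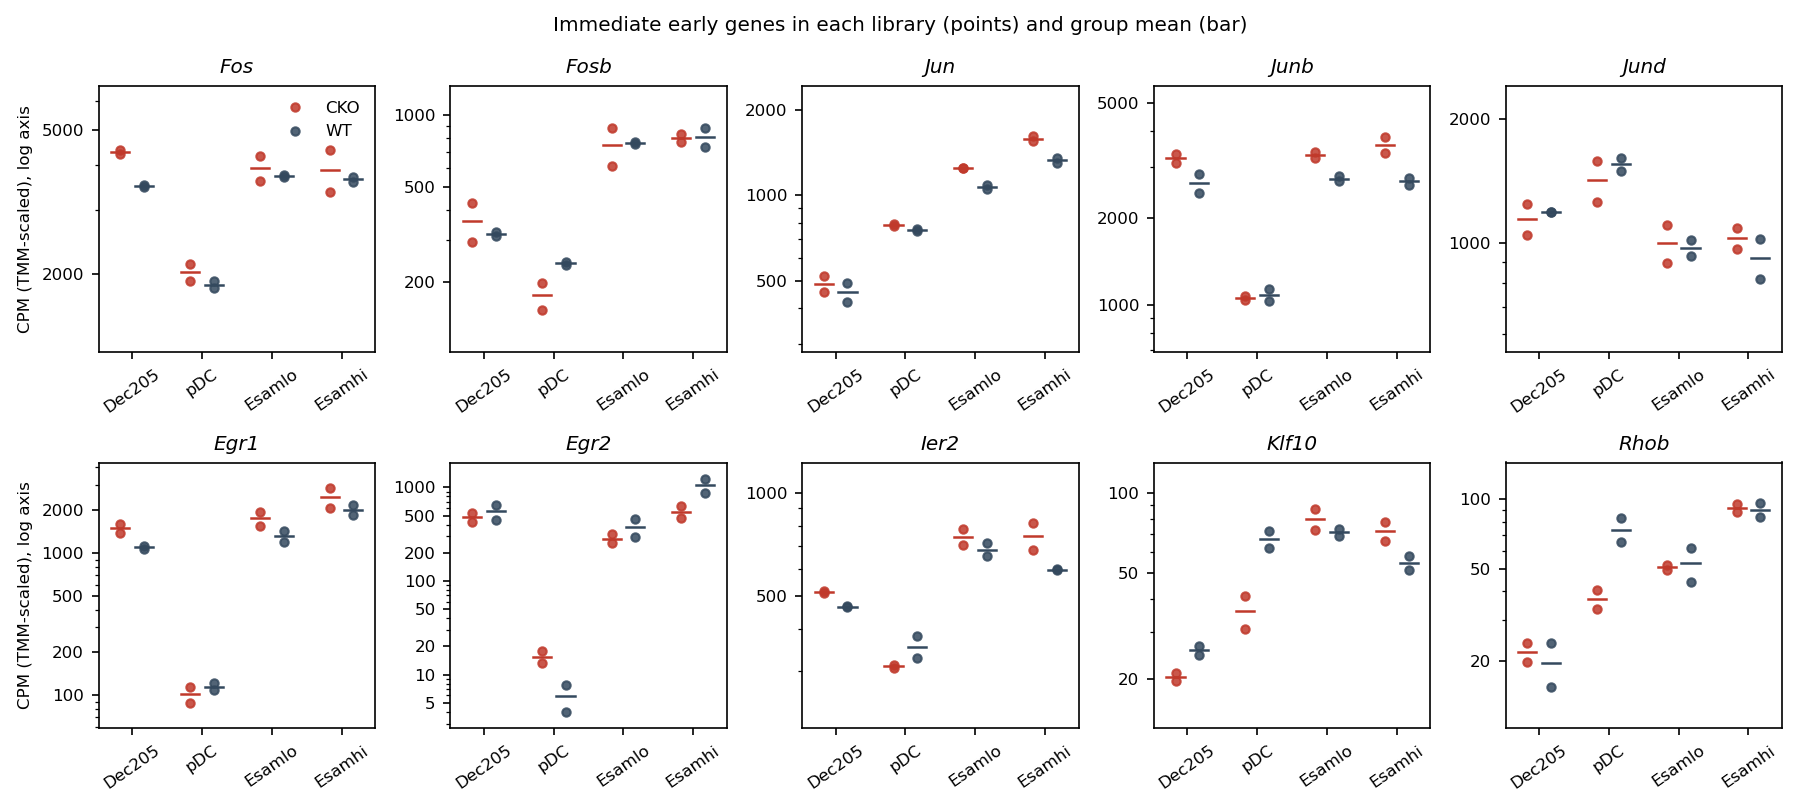
Level of each member in CPM scaled by TMM (vertical log axis, a separate range per gene) in the 4 subsets, with CKO (red) left of WT (dark blue); points are libraries and bars are means of 2. Egr1 and Egr2 sit lowest in pDC, Jund highest in pDC, and Klf10 and Rhob lowest in Dec205.

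Egr2, a zinc finger factor of the Egr family, had the widest range. It was at 655 and 452 CPM in Dec205 WT, 7.8 and 4.01 CPM in pDC WT, 464 and 297 CPM in Esamlo WT and 1228 and 873 CPM in Esamhi WT. Both pDC libraries lay far below every library of the other subsets. The difference of pDC WT from Esamhi WT was 178-fold (log2 fold change -7.48, SE 0.40, edgeR adjusted p = 8.29e-09), and that of Dec205 WT from pDC WT was 93.9-fold (6.55, SE 0.38, adjusted p = 2.14e-08). In CKO the ratio of the highest to the lowest subset mean was 35.3, against 178 in WT. Egr1, the family's best known early gene, was at 1127 and 1061 CPM in Dec205 WT, 122 and 108 CPM in pDC WT, 1428 and 1189 CPM in Esamlo WT and 2166 and 1850 CPM in Esamhi WT. It was 17.5-fold lower in pDC WT than in Esamhi WT (log2 fold change -4.13, SE 0.20, adjusted p = 3.93e-09) and 11.4-fold lower than in Esamlo WT (-3.51, SE 0.19, adjusted p = 1.61e-08). Both were also lower in Dec205 WT than in Esamhi WT, Egr1 with a log2 fold change of -0.88 (SE 0.18, adjusted p = 0.00177) and Egr2 with -0.93 (SE 0.29, adjusted p = 0.0232). The Egr2 call between these subsets was lost without Dec205 WT replicate 2 (adjusted p = 0.156) and without Esamhi WT replicate 1 (0.191). Between the cDC2 subsets, Egr2 was lower in Esamlo WT than in Esamhi WT (log2 fold change -1.47, SE 0.29, adjusted p = 0.00977) and Egr1 did not pass (-0.62, SE 0.18, adjusted p = 0.0627). This call for Egr2 was lost without Esamlo WT replicate 2 (adjusted p = 0.135) and without Esamhi WT replicate 1 (0.121).

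The Fos proteins bind DNA only as partners of Jun proteins. Fos was at 3476 and 3514 CPM in Dec205 WT, 1908 and 1829 CPM in pDC WT, 3696 and 3761 CPM in Esamlo WT and 3713 and 3588 CPM in Esamhi WT. The pDC libraries lay below all others, and the 3 classical subsets lay within a narrow band. It was lower in pDC WT than in Esamlo WT (log2 fold change -1.0, SE 0.11, edgeR adjusted p = 9.43e-06) and did not pass between any pair of classical subsets (adjusted p = 0.55, 0.695 and 0.946). Fosb, another Fos protein, was at 322 and 310 CPM in Dec205 WT, 235 and 242 CPM in pDC WT, 759 and 770 CPM in Esamlo WT and 738 and 886 CPM in Esamhi WT. Unlike Fos it split the classical subsets: it was lower in Dec205 WT than in Esamlo WT (log2 fold change -1.27, SE 0.19, adjusted p = 0.00024) and than in Esamhi WT (-1.36, SE 0.19, adjusted p = 0.000123). Between Dec205 WT and pDC WT Fosb did not pass (log2 fold change 0.41, SE 0.19, adjusted p = 0.098).

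The 3 Jun genes each had an order of their own. Jun was at 422 and 492 CPM in Dec205 WT, 763 and 751 CPM in pDC WT, 1050 and 1086 CPM in Esamlo WT and 1300 and 1354 CPM in Esamhi WT, so that no neighbours in this order overlapped. Dec205 was the low end, 2.9-fold below Esamhi (log2 fold change -1.54, SE 0.086, edgeR adjusted p = 3.92e-08), and pDC WT was above it (Dec205 against pDC -0.73, SE 0.084, adjusted p = 1.23e-05). The step from Esamlo to Esamhi was small (log2 fold change -0.31, SE 0.084, adjusted p = 0.0471), and it lost its call when any of the 4 libraries was left out (adjusted p 0.167 to 0.236). Junb, a Jun protein with weaker activating power, followed Fos instead: it was at 2834 and 2440 CPM in Dec205 WT, 1140 and 1036 CPM in pDC WT, 2788 and 2693 CPM in Esamlo WT and 2601 and 2761 CPM in Esamhi WT. It was 2.42-fold higher in Dec205 WT than in pDC WT (log2 fold change 1.28, SE 0.09, adjusted p = 1.21e-07) and did not pass between any classical subsets (adjusted p = 0.673, 0.871 and 0.919). Jund, the Jun protein with the steadiest expression in most cells, was at 1192 and 1193 CPM in Dec205 WT, 1500 and 1607 CPM in pDC WT, 929 and 1019 CPM in Esamlo WT and 817 and 1022 CPM in Esamhi WT. The pDC libraries lay above all others. It was 1.59-fold higher in pDC WT than in Esamlo WT (log2 fold change 0.67, SE 0.14, adjusted p = 0.00192) and 1.69-fold higher than in Esamhi WT (0.76, SE 0.14, adjusted p = 0.0008), while its lower level in Dec205 WT than in pDC WT (adjusted p = 0.0433) was no longer called without any 1 of those 4 libraries (0.0824 to 0.165). Annotated genes overlap Jun (Junos), Junb (Prdx2) and Jund (Gm11175). The libraries carry no strand information, so in the shared bases the counts of these pairs cannot be told apart. Prdx2, which shares 351 bases with Junb, had 697 to 2503 counts in a library, against 19416 to 71010 for Junb. The part of Prdx2 in the Junb counts was not tested.

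Ier2, a small nuclear protein induced with the AP-1 genes, was at 465 and 462 CPM in Dec205 WT, 380 and 328 CPM in pDC WT, 711 and 652 CPM in Esamlo WT and 593 and 597 CPM in Esamhi WT. It was lower in pDC WT than in Esamlo WT (log2 fold change -0.95, SE 0.1, edgeR adjusted p = 6e-06) and in Dec205 WT than in Esamlo WT (-0.56, SE 0.099, adjusted p = 0.000837). It was also lower in Dec205 WT than in Esamhi WT (-0.36, SE 0.099, adjusted p = 0.012), which was lost without Dec205 WT replicate 2, Esamhi WT replicate 1 or Esamhi WT replicate 2 (0.0511 to 0.0541). Its higher level in Dec205 WT than in pDC WT (0.39, SE 0.099, adjusted p = 0.00603) was lost without pDC WT replicate 2 (0.0719) and with scaling by library size alone (0.268). Klf10, a zinc finger repressor first known as an early target of TGF-beta, was at 26.6 and 24.6 CPM in Dec205 WT, 72 and 61.9 CPM in pDC WT, 69 and 73.1 CPM in Esamlo WT and 51.3 and 58 CPM in Esamhi WT. Rhob, a small GTPase of endosomes that is itself an early gene, was at 15.4 and 24 CPM in Dec205 WT, 65.2 and 82.7 CPM in pDC WT, 44 and 61.7 CPM in Esamlo WT and 84.1 and 96 CPM in Esamhi WT. For both genes Dec205 lay below every other subset. Klf10 was lower in Dec205 WT than in Esamlo WT (log2 fold change -1.47, SE 0.17, adjusted p = 2.16e-05) and than in Esamhi WT (-1.09, SE 0.17, adjusted p = 0.0002). Rhob was lower in Dec205 WT than in Esamlo WT (-1.42, SE 0.23, adjusted p = 0.000356) and than in Esamhi WT (-2.19, SE 0.23, adjusted p = 9.19e-06). Neither was tested against pDC WT, whose values had served to choose them.

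Counted over the members, 7 of 8 differed between Dec205 WT and pDC WT, 5 higher and 2 lower, where 47.6% of all genes were called, 25.2% higher and 22.4% lower. All 8 differed between pDC WT and Esamlo WT, with Jund higher and the other 7 lower, where 45.7% of all genes were called, 20.2% higher and 25.4% lower. The same counts held between pDC WT and Esamhi WT, where 47.1% of all genes were called, 21.4% higher and 25.7% lower. Between Dec205 WT and Esamlo WT 5 of 10 members were lower and none higher, where 34.2% of all genes were called, 16.1% higher and 18.2% lower. Between Dec205 WT and Esamhi WT 7 of 10 were lower and none higher, where 37.4% of all genes were called, 17.9% higher and 19.5% lower. Between Esamlo WT and Esamhi WT 2 of 10 were lower and none higher, where 5.81% of all genes were called, 3.09% higher and 2.72% lower. With a library left out this last count was 0 without Esamlo WT replicate 2 or Esamhi WT replicate 1 and 1 otherwise. These comparisons share libraries with each other. Scaling by library size alone moved the median of all genes between Dec205 WT and pDC WT to -0.24, and no called member's direction turned under it in any of the 6 subset comparisons.

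The genotypes were compared next. Averaged over Dec205, Esamlo and Esamhi, 3 of the 10 members were higher in CKO than in WT and none lower, where 5.86% of all tested genes were called, 3.81% higher and 2.05% lower. The 3 were Junb, Jun and Egr1, by 1.25-fold, 1.14-fold and 1.31-fold. Junb was at 3104 and 3327 CPM in Dec205 CKO, against 2834 and 2440 CPM in Dec205 WT. It was at 3396 and 3234 CPM in Esamlo CKO, against 2788 and 2693 CPM in Esamlo WT, and at 3817 and 3356 CPM in Esamhi CKO, against 2601 and 2761 CPM in Esamhi WT. Both CKO libraries lay above both WT libraries in each of the 3 subsets. The averaged log2 fold change was 0.33 (SE 0.051, 1.25-fold, edgeR adjusted p = 0.00217), and Junb stayed called with each of the 12 libraries left out in turn (adjusted p 0.00117 to 0.0107).

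The calls of Jun and Egr1 changed with single libraries. Jun was at 456 and 521 CPM in Dec205 CKO, against 422 and 492 CPM in Dec205 WT, which overlapped. It was at 1244 and 1248 CPM in Esamlo CKO, against 1050 and 1086 CPM in Esamlo WT, and at 1548 and 1615 CPM in Esamhi CKO, against 1300 and 1354 CPM in Esamhi WT, without overlap in either. The averaged log2 fold change was 0.19 (SE 0.048, edgeR adjusted p = 0.0361), and of the 12 fits that left out a library only those without Dec205 WT replicate 2 and without Dec205 CKO replicate 1 kept the call (range of adjusted p 0.0144 to 0.107). Egr1 was at 1599 and 1378 CPM in Dec205 CKO, against 1127 and 1061 CPM in Dec205 WT. It was at 1957 and 1559 CPM in Esamlo CKO, against 1428 and 1189 CPM in Esamlo WT, and at 2890 and 2059 CPM in Esamhi CKO, against 2166 and 1850 CPM in Esamhi WT. The genotypes were apart in Dec205 and Esamlo and overlapped in Esamhi. Averaged, Egr1 had a log2 fold change of 0.39 (SE 0.10, adjusted p = 0.0413), and it lost its call without Dec205 WT replicate 2, Dec205 CKO replicate 1, Esamlo WT replicate 2, Esamlo CKO replicate 1, Esamhi WT replicate 1, Esamhi WT replicate 2 or Esamhi CKO replicate 1 (adjusted p 0.0592 to 0.133). The Egr1 call also ended with scaling by library size only (0.0549) and with no filter (0.0736), and the Jun call in a fit of only the libraries compared (0.0677).

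Within single subsets no member passed edgeR's test of CKO against WT. In Dec205, where 6.78% of all genes were called, 0 of 10 members were called, 3 had an unadjusted p under 0.05 and DESeq2 called 2. Without overlap of the libraries, 4 members were higher (Fos, Junb, Egr1 and Ier2) and 1 lower (Klf10) in Dec205 CKO, where 20.1% of all genes were higher and 21.1% lower in that way. In Esamlo (0.551% of all genes called) 0 of 10 were called, 3 had an unadjusted p under 0.05 and DESeq2 called 0. The libraries did not overlap for 3 members, all higher in CKO (Jun, Junb and Egr1), where 23.1% of all genes were higher and 21.1% lower without overlap. In Esamhi (0.877% of all genes called) 0 of 10 were called, 5 had an unadjusted p under 0.05 and DESeq2 called 2. Without overlap, 4 members were higher (Jun, Junb, Ier2 and Klf10) and 1 lower (Egr2) in Esamhi CKO, where 22.4% of all genes were higher and 21.8% lower. Junb in Esamhi lay at the threshold (log2 fold change 0.42, SE 0.089, adjusted p = 0.0502). It was called there under 5 of 6 other settings (adjusted p 0.000317 to 0.0659, the highest with library size only) but not when any 1 of the 4 libraries was left out (0.0803 to 0.532). In Dec205, Junb was called with library size only (adjusted p = 0.0352), by DESeq2 (0.0158) and without Dec205 WT replicate 1 (0.0281). A joint test for unequal effects of genotype over these 3 subsets called 0 of 10 members (1 at an unadjusted p under 0.05, 0 by DESeq2), where 1.46% of all genes were called.

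**Figure D2:**
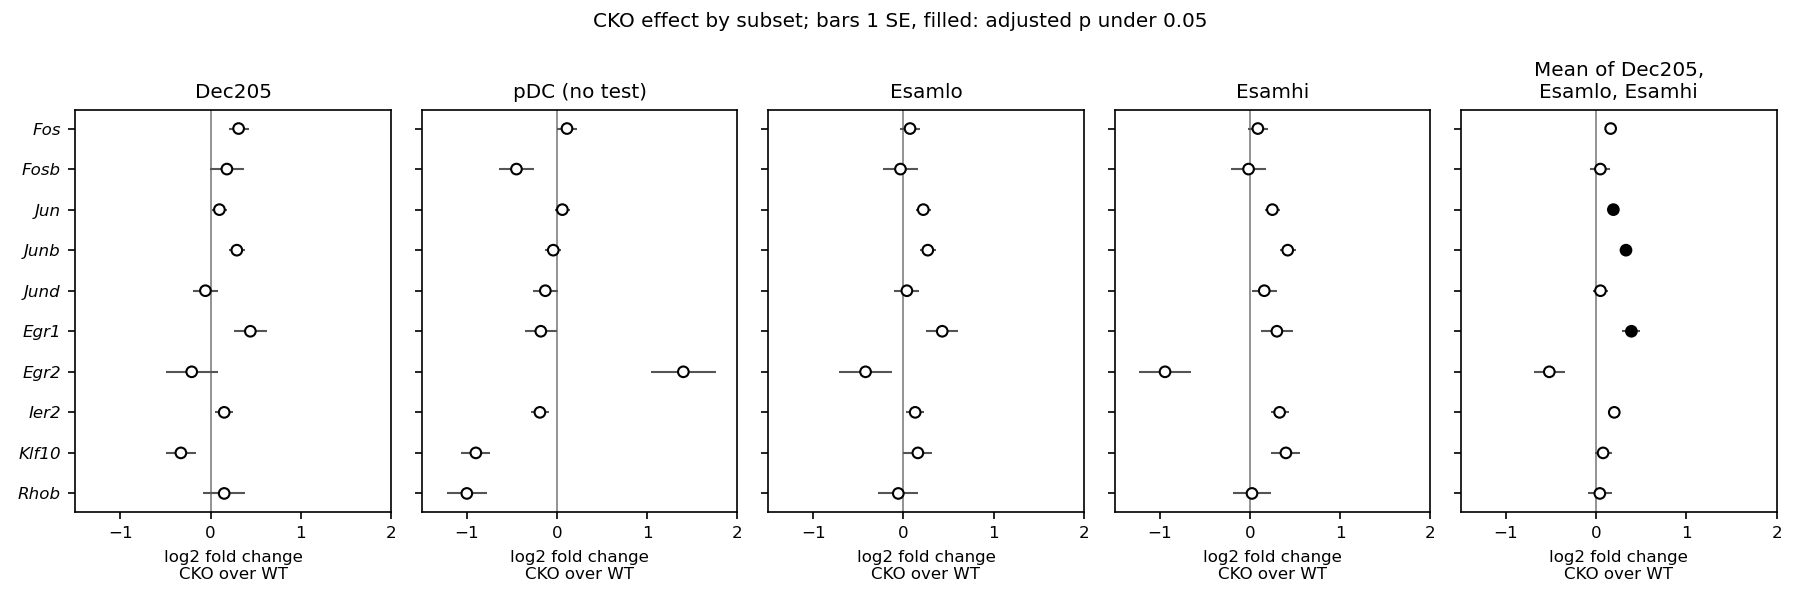
Log2 fold change of CKO over WT (horizontal axis) for each member in each subset and averaged over the 3 classical subsets; bars are 1 SE and filled points have an edgeR adjusted p under 0.05. Only the averaged values of Jun, Junb and Egr1 are filled, and Egr2 is at 1.40 in pDC and -0.94 in Esamhi.

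Egr2 had fold changes of the opposite sign to those of Egr1 in the 3 classical subsets. In Esamhi Egr2 was at 625 and 472 CPM in CKO, against 1228 and 873 CPM in WT, so that both CKO libraries lay below both WT libraries (log2 fold change -0.94, SE 0.29, edgeR adjusted p = 0.272). In Dec205 it was at 532 and 426 CPM in CKO, against 655 and 452 CPM in WT, and in Esamlo at 315 and 252 CPM in CKO, against 464 and 297 CPM in WT, with overlap in both. Its averaged value of -0.52 (SE 0.17, adjusted p = 0.0944) was the sole negative one among the 10 members and did not pass. In Esamhi, Egr2 was called in a fit of only the libraries compared (adjusted p = 0.0375). Ier2 had a positive averaged value that did not pass either (0.20, SE 0.057, adjusted p = 0.0614), though it did by DESeq2 (0.00879), with 817 and 678 CPM in Esamhi CKO, against 593 and 597 CPM in Esamhi WT. Fos was at 4401 and 4292 CPM in Dec205 CKO, against 3476 and 3514 CPM in Dec205 WT, without overlap (log2 fold change 0.31, SE 0.11, adjusted p = 0.112). In Esamlo and Esamhi the Fos genotypes overlapped, with log2 fold changes of 0.073 and 0.089. Fosb, Jund, Klf10 and Rhob had averaged values of 0.046, 0.047, 0.076 and 0.04, each with an adjusted p of at least 0.764. Klf10 was at 66.1 and 77.9 CPM in Esamhi CKO, against 51.3 and 58 CPM in Esamhi WT, and at 19.6 and 21.1 CPM in Dec205 CKO, against 26.6 and 24.6 CPM in Dec205 WT. It was the member with the smallest unadjusted p in the joint test of differing effects (0.0238, adjusted p = 0.328).

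Markers listed for other cells, and for the sorted subsets themselves, moved with genotype in the same libraries. All 8 B cell markers were higher in both CKO libraries than in both WT libraries of Dec205, with sums of 356 to 641 CPM in CKO, against 130 to 158 CPM in WT. The same held for 5 of 8 in Esamlo (311 to 768 CPM in CKO, against 205 to 286 CPM in WT) and 6 of 8 in Esamhi (198 to 266 CPM in CKO, against 152 to 165 CPM in WT). Blk went the other way in Esamhi, at 15.7 and 12.5 CPM in CKO, against 22.4 and 26 CPM in WT. Of all tested genes, 20.1% to 23.1% were higher and 21.1% to 21.8% lower without overlap in these 3 subsets. Of 5 monocyte markers, 3 were higher in Dec205 CKO (sums of 2690 to 3457 CPM in CKO, against 1036 to 1169 CPM in WT) and 4 in Esamhi CKO (1256 to 1386 CPM in CKO, against 553 to 587 CPM in WT). Plac8, among the 3 in Dec205, was at 1844 and 2117 CPM in CKO, against 308 and 340 CPM in WT. Plac8 was also at 1073 to 1295 CPM in pDC, so it did not mark monocytes alone. In Esamlo CKO 2 monocyte markers were higher and 1 lower, with sums that overlapped (3497 to 4117 CPM in CKO, against 3222 to 3959 CPM in WT). Of the 9 cDC1 markers in Dec205, 3 were higher and 4 lower in CKO, among them Cd8a with 69.2 and 70.7 CPM in CKO, against 781 and 699 CPM in WT. All 6 neutrophil markers were higher in CKO in Esamlo (103 to 105 CPM in CKO, against 68.5 to 71.6 CPM in WT). The same held in Esamhi (99 to 111 CPM in CKO, against 20.1 to 29.3 CPM in WT). Most of these sums was Csf3r, at 63.2 and 63 CPM in Esamlo CKO, against 46.5 and 58.1 CPM in Esamlo WT. In Esamhi Csf3r was at 63.5 and 69.1 CPM in CKO, against 13.3 and 21.8 CPM in WT. Each of the other neutrophil markers was at no more than 17.2 CPM in the Esam subsets. In Dec205 2 of the 6 neutrophil markers were higher, with sums of 5.9 CPM in CKO, against 5.39 to 12.4 CPM in WT. The 9 pDC markers included 7 that were higher and 1 that was lower in Dec205 CKO (551 to 665 CPM summed in CKO, against 385 to 410 CPM in WT). In Esamlo CKO 7 of the 8 cDC2 markers were lower and 1 higher (2227 to 2281 CPM in CKO, against 2527 to 2632 CPM in WT). In Esamhi CKO 3 of these 8 were higher and 4 lower, with sums of 2604 to 2609 CPM in CKO, against 2538 to 2772 CPM in WT. No B cell, monocyte or neutrophil marker was at 0 in any of these groups. Their part in the results for Junb, Jun and Egr1 was not tested.

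In pDC the members had the pattern on which Klf10 and Rhob were chosen, so only values are given. Rhob was at 33.5 and 40.7 CPM in pDC CKO, against 65.2 and 82.7 CPM in pDC WT (log2 fold change -1.0, SE 0.22). Klf10 was at 30.8 and 41.1 CPM in pDC CKO, against 72 and 61.9 CPM in pDC WT (-0.90, SE 0.16). In WT these pDC levels stood near those of the cDC2 subsets, whereas in CKO they lay below every cDC2 library and above every Dec205 library. Egr2 was at 13.3 and 17.8 CPM in pDC CKO, against 7.8 and 4.01 CPM in pDC WT (1.40, SE 0.36), still far below all other subsets. Fosb was at 152 and 198 CPM in pDC CKO, against 235 and 242 CPM in pDC WT (-0.45, SE 0.19). In all, 3 members were higher without overlap in pDC CKO (Fos, Jun and Egr2) and 4 were lower (Fosb, Ier2, Klf10 and Rhob), where 20.6% and 16.7% of all genes did so. Junb, with 1074 and 1040 CPM in pDC CKO, against 1140 and 1036 CPM in pDC WT, and Egr1, with 115 and 87.8 CPM in pDC CKO, against 122 and 108 CPM in pDC WT, overlapped. Of the 8 B cell markers, 4 were higher in both pDC CKO libraries (sums of 184 to 254 CPM in CKO, against 148 to 174 CPM in WT), and their part in these values was not tested.

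Across the 8 group means correlations of log2 CPM between members are given as a description over groups that share subset and genotype. Fos, Junb, Egr1 and Egr2 had pairwise Pearson r of 0.93 to 0.98, and Fosb and Ier2 of 0.96. Jun and Fos had an r of 0.15. Jund had negative r with every other member, and it was -0.25 with Rhob, -0.28 with Klf10, -0.55 with Jun and -0.85 to -0.93 with the other 6. Among 8856 other genes whose log2 CPM averaged 3 or more, those most like Egr1 over the 8 means included B230217C12Rik (0.996), Phlpp1 (0.996), Adprh (0.995) and Btg2 (0.995), the last an antiproliferative early gene. The gene most like Fos was Tm6sf1 (0.996), the one most like Junb was Rabgef1 (0.992), the one most like Klf10 was Xrn1 (0.991), and the one most like Rhob was Hccs (0.982). The values for Klf10 and Rhob include the pDC groups on which these genes were chosen.

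Most other early genes were lower in pDC WT too. Of 41 tested immediate early genes outside the members, 24 were lower and 7 higher in pDC WT than in Esamlo WT, with a median log2 fold change of -0.76, against -0.028 over all tested genes. Of 15 other AP-1 genes, 8 were lower and 1 higher, with a median of -3.65. In this comparison 25.4% of all tested genes were lower and 20.2% higher. Egr3, another Egr factor, was at 296 and 272 CPM in Dec205 WT, 2.67 and 3.56 CPM in pDC WT, 160 and 120 CPM in Esamlo WT and 444 and 377 CPM in Esamhi WT. Dusp1, the phosphatase that switches off MAP kinases, was at 2687 and 3479 CPM in Dec205 WT, 137 and 182 CPM in pDC WT, 2433 and 3013 CPM in Esamlo WT and 2342 and 2895 CPM in Esamhi WT. For both, the pDC libraries lay below every library of the other subsets. Egr3 and Dusp1 were singled out after their values were seen.

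**Figure D3:**
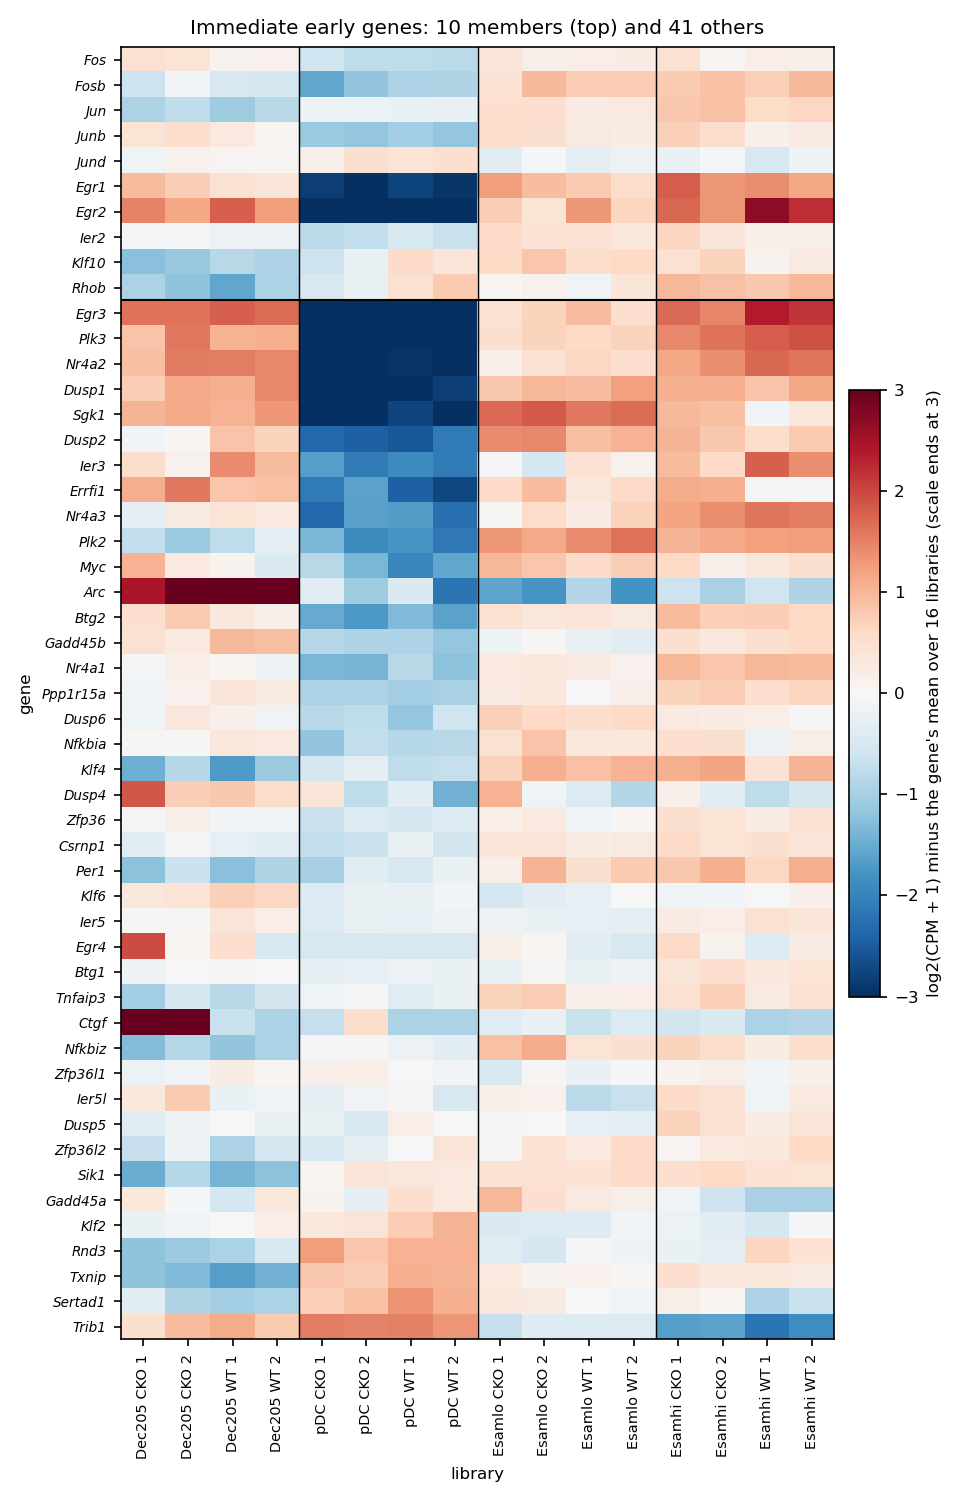
Log2(CPM + 1) minus the gene's mean over the 16 libraries (colour, ends at 3 in either direction) for the 10 members (top) and 41 other immediate early genes (rows, ordered by how low they are in pDC WT) in each library (columns, CKO left of WT within a subset). The 4 pDC columns are blue for Egr1, Egr2, Egr3 and Dusp1, while the CKO and WT columns of a subset look alike for most rows.

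Related genes were called in both directions in CKO. Averaged over Dec205, Esamlo and Esamhi, 8 of 41 other immediate early genes were called, 4 higher and 4 lower. Their median log2 fold change was 0.084, against 0.00 over all tested genes. In this averaged comparison 5.86% of all tested genes were called, 3.81% higher and 2.05% lower. Errfi1, an inhibitor of EGF receptor signalling, was higher (log2 fold change 0.66, SE 0.11, edgeR adjusted p = 0.00345), as was Ier5l (0.69, SE 0.12, adjusted p = 0.00436), whereas Ier3 was lower (-0.75, SE 0.14, adjusted p = 0.00592). Ctgf, a matricellular growth factor, was at 31.5 and 32.1 CPM in Dec205 CKO, against 0.228 and 0 CPM in Dec205 WT, and at no more than 1.82 CPM in all other groups. None of 15 other AP-1 genes was called by edgeR (3 at an unadjusted p under 0.05, 2 by DESeq2). Of 25 upstream kinases and factors 1 was called, Rps6ka5, a kinase of CREB, which was higher (0.54, SE 0.13, adjusted p = 0.0242). Nab2, the Egr corepressor that Egr factors induce, was at 3.01 and 3.27 CPM in pDC CKO, against 0 and 0.457 CPM in pDC WT, and was chosen after its values were seen.

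Of 16 TGF-beta genes near Klf10, 2 were called in the averaged comparison, where 3.81% of all tested genes were called higher and 2.05% lower. Both were receptors that were higher, Tgfbr2 (log2 fold change 0.40, SE 0.097, edgeR adjusted p = 0.0304) and Tgfbr1 (0.39, SE 0.10, adjusted p = 0.0413). Of 15 heat shock genes, 5 were lower and none higher in the same comparison, with a median log2 fold change of -0.28. Among them Hsph1, a chaperone of the Hsp110 family, was lowered most among the 4 named here (-0.73, SE 0.10, adjusted p = 0.000896), followed by Dnaja1 (-0.34), Hsp90ab1 (-0.31) and Hspa8 (-0.28), the 3 with adjusted p from 0.00068 to 0.00524. Hsph1 was at 61 and 69.7 CPM in Esamhi CKO, against 128 and 113 CPM in Esamhi WT. The part of heat shock genes, which moved with genotype, in the results for the members was not tested.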

How the data were processed

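Counts per gene were used as deposited: raw whole-number counts, which the authors deposited in 1 table of 24116 genes and 16 columns (0 columns unused). Per the submitters' processing notes, the tools were bcl2fastq, Trimmomatic 0.36 and Bowtie2 2.2.9 with build mm10. The sources used here name no counting tool or annotation. Per the labels' protocols, cDNA came from the SMART-seq v4 kit, which marks no strand and carries no molecular identifiers.

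Genes were kept by filterByExpr (13790) and scaled by TMM. The test was edgeR 4.0.16 (R 4.3.3), the quasi-likelihood F test with 1 coefficient per group, 8 residual degrees of freedom and Benjamini-Hochberg adjustment over all tested genes at 0.05; standard errors came from F. CPM used TMM-scaled totals, log2 CPM a prior count of 2. Lengths per kb are exon unions of GENCODE M21. The floor at 0 is 3 counts. The fit was tested on simulated data. Replicates of a group differed beyond sampling noise.

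The members and gene lists were chosen with earlier results of these data known. The other genes named were the up to 4 called with the largest change per list and comparison, unless said to be chosen after their values were seen. Alternatives were other scalings, no filter, DESeq2 1.42.0, a replicate block, only the libraries compared, and each library left out. Some results are not reported here.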

Additional observations from a re-analysis of the deposited data

Results flagged for a closer look

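Between pDC and Esamhi the CKO and WT libraries of 3 members lay apart in opposite directions. Of all tested genes, 20.6% were higher and 16.7% lower without overlap in pDC CKO, and 22.4% and 21.8% in Esamhi CKO. The share of all genes that lay apart in opposite directions was not computed. The differences were not tested because the pDC contrast had served to choose members. For Egr2 the log2 fold change in pDC was higher by 2.34 than that in Esamhi. For Klf10 the log2 fold change in pDC minus that in Esamhi was -1.30. For Ier2 it was -0.52, and against Dec205 it was -0.34.

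In 4 related genes the CKO effect differed among Dec205, Esamlo and Esamhi by edgeR's joint test. Dusp2, a MAP kinase phosphatase, had an adjusted p of 0.00994, with 153 and 168 CPM in Dec205 CKO, against 293 and 257 CPM in Dec205 WT, but 432 and 439 CPM in Esamlo CKO, against 300 and 333 CPM in Esamlo WT. Gadd45b, a stress sensor, had an adjusted p of 0.0458, with 346 and 311 CPM in Dec205 CKO, against 501 and 476 CPM in Dec205 WT, and 228 and 259 CPM in Esamlo CKO, against 216 and 202 CPM in Esamlo WT. In Esamhi it was at 356 and 318 CPM in CKO, against 354 and 385 CPM in WT. Rac2 had an adjusted p of 0.0349 and Rhou of 0.0364, with 479 and 388 CPM of Rac2 in Dec205 CKO, against 231 and 204 CPM in Dec205 WT, and 107 and 151 CPM of Rhou in Dec205 CKO, against 0.0759 and 0 CPM in Dec205 WT. Rac2 was also higher without overlap in Esamlo (589 and 532 CPM in CKO, against 399 and 419 CPM in WT) and in Esamhi (626 and 565 CPM in CKO, against 520 and 531 CPM in WT). Rhou was at no more than 1.34 CPM in every Esamlo and Esamhi library.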

How the results depend on the processing

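Over all settings 507 of 580 member values of CKO against WT counted as unchanged. Outside pDC this meant the same direction and side of the threshold, and there 22 values turned sign, none of them called. In pDC, which had no test, it meant a shift smaller than the spread between replicates, and 13 values did not meet this. In Esamhi, 1 member was called with RLE size factors, 1 with no filter, 2 with DESeq2 (Junb and Ier2) and 2 in a fit of only the libraries compared (Junb and Egr2); in Dec205, 1 with library size only (Junb) and 2 with DESeq2 (Fos and Junb). Between Esamlo WT and Esamhi WT, 1 was called with library size only, 1 with no filter, 4 with DESeq2 and 4 in the fit of only the libraries compared. The cause was not tested.

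The replicate block, which shares only a number between libraries (same-number correlations -0.069 to 0.12), called 1 member in Dec205 (Egr1), 2 in Esamhi (Junb and Egr2) and 5 in the averaged comparison (Egr2, adjusted p = 0.0184, and Ier2, 0.0353, beside the reported 3), 8 between Dec205 WT and Esamlo WT and 4 between Esamlo WT and Esamhi WT. Rhob in Esamhi turned to -0.011 with library size only.

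With 1 library left out, counts were 1 to 4 averaged (1 without Esamlo WT replicate 2, Esamlo CKO replicate 1, Esamhi WT replicate 1, Esamhi WT replicate 2 or Esamhi CKO replicate 1), 0 to 1 in Dec205 (1 without Dec205 WT replicate 1) and 0 to 1 between Esamlo WT and Esamhi WT. Log2 fold changes that turned ranged as follows: Egr2 -0.45 to 0.093, Jund -0.19 to 0.071, Fosb -0.11 to 0.44 and Rhob -0.12 to 0.51 in Dec205. In Esamlo the ranges were Jund -0.13 to 0.19, Rhob -0.28 to 0.21, Fos -0.04 to 0.17 and Fosb -0.33 to 0.21. In Esamhi they were Rhob -0.071 to 0.12, Fosb -0.14 to 0.12 and Fos -0.12 to 0.27. Averaged, they were Rhob -0.05 to 0.16, Fosb -0.051 to 0.13 and Jund -0.006 to 0.1. In pDC, without a test, they were Junb -0.12 to 0.033 and Jund -0.3 to 0.025. A lone library is assumed to vary like the other groups.

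The number of all genes called, given first as reported, then by DESeq2 and in a fit of only the libraries compared, differed by over 1.5 times in Dec205 (935, 1707 by DESeq2, 136 in the last), pDC (255, 549, 91), Esamlo (76, 250, 126), Esamhi (121, 305, 578), the averaged comparison (808, 1359 by DESeq2), the joint test (201, 664 by DESeq2) and between Esamlo WT and Esamhi WT (801, 1400, 1561). With 1 library left out it was 28 to 38 in Esamlo, 44 to 48 in Esamhi and 303 to 501 between Esamlo WT and Esamhi WT, each below the reported count by over 1.5 times whichever of the 4 libraries was left out. It was 585 in Dec205 without Dec205 WT replicate 2 (585 to 1328 in all), 501 to 1164 averaged and 122 to 347 in the joint test. Junb averaged was called under all 6 settings other than leaving out 1 library (adjusted p 1.99e-08 to 0.00603).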
